A study of Homo sapiens with 8 samples.

Results

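The genes described here encode proteins of the lysosome: its soluble hydrolases with their activators, 6 membrane proteins, the proton pump that acidifies it, and the transcription factors TFEB and TFE3. The 46 members were the listed genes whose symbol matched a probe of the array annotation, and all 46 had at least 1. They were listed with earlier results of these data known, so their shares beside all genes describe these arrays and are no independent test. They had 63 of the 24531 probes. A gene entered the tests when 1 of its probes was detected on at least 2 arrays, and 44 of the 46 members did, among 9377 genes and unnamed probes tested. The probes of TFEB and of the sulfatase GALNS were detected on no array. RNA was measured on 8 Illumina expression arrays at 72 h after transfection. There were 4 groups of 2 arrays: TOV-21G cells given an siRNA against CSE1L, TOV-21G cells given a scrambled control siRNA, SK-OV-3 cells given the CSE1L siRNA, and SK-OV-3 cells given the control siRNA. TOV-21G was derived from a clear cell ovarian carcinoma and SK-OV-3 from the ascites of an ovarian adenocarcinoma, and each was used as 1 established line. The arrays of a group were numbered as experiments 1 and 2, with nothing more said of how they were grown, so each p-value is set against array-to-array spread alone, and that may be technical.

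Lysosomes break down proteins, sugar chains, lipids and nucleic acids with hydrolases that work at acid pH. The vacuolar ATPase keeps the lumen acid: its V1 sector in the cytosol splits ATP, and its V0 sector in the membrane carries the protons. TFEB and TFE3 move into the nucleus when nutrients are scarce or lysosomes are stressed, and bind a motif around CACGTG that is found before many lysosomal genes, the CLEAR element. CSE1L is the export receptor that returns importin alpha to the cytosol, so that importins can carry further cargo into the nucleus.

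Promoter sequences from RefSeq (build GRCh38.p14), 250 bases before to 50 after a start, were at hand for 32 of the 46 members and for 27305 gene symbols in all. ATP6V1H, SGSH, ASAH1, LGMN, LAMP2, PSAP, ATP6V1A, MANBA, HEXA, NAGLU, ATP6V1B2, ARSA, ATP6V1C1 and ATP6V0E1 had no entry. The core CACGTG was found, on either strand, in 11 of the 32 members (34.4%) and in 2396 of the 27305 genes (8.77%). Its longer form TCACGTGA, which contains the core, was found in 7 members (21.9%) and in 321 genes (1.18%). The full palindrome, which is TCACGTGA with a G before and a C after it, was found in ATP6V1G1, GAA, GALNS and MCOLN1 (12.5%) and in 115 genes (0.421%). The related motif TCATGTGA was found in ATP6V0C, CD63, GRN, PPT1 and TPP1 (15.6%, against 1.24% of genes). The stretches below end 1 base before the annotated start and are written 5′ to 3′ along the gene, with the longest form of the motif present in capitals. They were chosen to show the range from 5 copies to none within the stretches, among members whose array values are given afterwards. The whole LAMP1 promoter holds 6 copies, of which 1 begins 1 base before the start and so runs past the stretch. MCOLN1 lies at chr19:7522524-7522623 on the plus strand, GAA at chr17:80101481-80101580 on the plus strand, ATP6V1G1 at chr9:114587669-114587768 on the plus strand and LAMP1 at chr13:113297039-113297238 on the plus strand. ATP6V0D1 lies at chr16:67481158-67481257 on the minus strand, NEU1 at chr6:31862822-31862971 on the minus strand and LIPA at chr10:89251776-89251875 on the minus strand.
MCOLN1: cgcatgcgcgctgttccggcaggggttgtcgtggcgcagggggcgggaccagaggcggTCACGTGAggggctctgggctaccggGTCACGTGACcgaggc
GAA: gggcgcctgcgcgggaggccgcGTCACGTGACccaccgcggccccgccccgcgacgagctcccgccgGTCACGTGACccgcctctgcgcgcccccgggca
ATP6V1G1: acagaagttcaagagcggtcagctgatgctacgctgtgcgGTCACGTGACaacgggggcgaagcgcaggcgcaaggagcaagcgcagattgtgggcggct
LAMP1: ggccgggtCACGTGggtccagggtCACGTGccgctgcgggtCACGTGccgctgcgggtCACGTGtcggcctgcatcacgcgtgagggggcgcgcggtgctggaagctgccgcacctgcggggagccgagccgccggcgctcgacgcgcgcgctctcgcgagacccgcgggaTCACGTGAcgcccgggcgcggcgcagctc
ATP6V0D1: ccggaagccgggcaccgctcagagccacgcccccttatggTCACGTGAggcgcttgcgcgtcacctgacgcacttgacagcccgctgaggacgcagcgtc
NEU1: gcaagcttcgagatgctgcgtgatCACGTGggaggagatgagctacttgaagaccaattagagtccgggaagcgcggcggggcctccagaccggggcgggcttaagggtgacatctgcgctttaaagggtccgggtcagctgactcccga
LIPA: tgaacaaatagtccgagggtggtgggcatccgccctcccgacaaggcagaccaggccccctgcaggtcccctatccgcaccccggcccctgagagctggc
These 100 bases before the LIPA start hold no CACGTG, nor do the rest of its 3 annotated promoters. A match describes letters and does not show that a factor binds. In the deposited arrays, 8 of the 10 tested members with a CACGTG promoter lay above 0 after CSE1L silencing in TOV-21G, with a median log2 change of 0.44. Of the 20 tested members with a promoter but no CACGTG, 17 lay above 0, with a median log2 change of 0.28. In SK-OV-3 the medians were -0.02 with the motif and 0.05 without it.

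The arrays detected between 9206 and 9820 probes each, or 37.5% to 40.0%, and replicates correlated across genes at 0.972 to 0.982. CSE1L, the silenced gene, had log2 intensities of 8.80 and 7.72 in silenced TOV-21G, against 13.02 and 11.65 in control TOV-21G. In SK-OV-3 it had 10.51 and 8.99 in silenced cells, against 12.04 and 12.56 in control cells. Both silenced arrays lay below both control arrays in each line. The fitted log2 change was -4.08 in TOV-21G (SE 0.63, limma adjusted p = 0.0257) and -2.55 in SK-OV-3 (SE 0.63, adjusted p = 0.262), so that it fell past the threshold in TOV-21G. That call was lost without silenced replicate 2 (adjusted p = 0.112), control replicate 1 (0.162) or control replicate 2 (0.0767) of TOV-21G. The keratin genes KRT8 and KRT18 were detected on all 8 arrays. Of the 2 other carcinoma markers, KRT19 was detected on 6 arrays and EPCAM on none. Of 3 leukocyte markers, PTPRC and CD3E were detected on none, while CD14 was detected on 5, with 6.96 and 6.80 in silenced and 6.18 and 5.90 in control SK-OV-3 (log2 change 0.84, limma adjusted p = 0.306) and 0.28 in TOV-21G (adjusted p = 0.599). The endothelial markers PECAM1 and CDH5 were detected on no array. Of 3 fibroblast genes, COL1A2 was detected on none, DCN on the 4 TOV-21G arrays and COL1A1 on all 8. COL1A1 had 9.12 and 8.19 in silenced and 7.34 and 7.72 in control SK-OV-3 (log2 change 1.13, limma adjusted p = 0.552) and a log2 change of 0.39 in TOV-21G (adjusted p = 0.759). The CD14 and COL1A1 groups did not overlap in SK-OV-3, and their part in the member changes was not tested. The arrays measured RNA of whole cultures, in which fewer cells expressing a gene and less RNA per cell cannot be told apart.

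In TOV-21G most lysosomal members stood higher after CSE1L silencing, and none passed the test. Of the 44 tested, 35 had a log2 change above 0 (79.5%), against 50.5% of all genes tested. That count was 30 to 36 when 1 of the 4 TOV-21G arrays was left out and 30 with median scaling, which put the median of all genes at -0.10. The median log2 change was 0.34 for the members and 0.00 for all genes. The 6 members with an unadjusted p under 0.05 (13.6%) were LIPA, NEU1, GRN, ATP6V0D1, ATP6V1F and PSAP, all higher. Such a p was found for 19.9% of all genes in either direction, and for 9.36% of all genes as higher. By limma 0 of 44 were called at an adjusted p under 0.05, where 3.17% of all genes were called and 1.09% were called higher. With the experiment number as a block, LIPA, NEU1, PSAP and MCOLN1 rose (9.09% of members, against 2.53% of genes called higher). Both silenced arrays lay above both control arrays for 15 members (34.1%), against 24.1% of all genes, and below them for 3 members (6.82%), against 24.8%. These 3 were ARSB, ATP6V1B2 and ATP6V1C1. In both same-numbered pairs the silenced array was the higher one for 29 members (65.9%), against 36.5% of all genes, and the lower one for 5 (11.4%), against 35.9%. Over all members the median log2 intensity per array was 11.05 and 11.17 in silenced TOV-21G, against 10.83 and 10.52 in control TOV-21G.

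**Figure D1:**
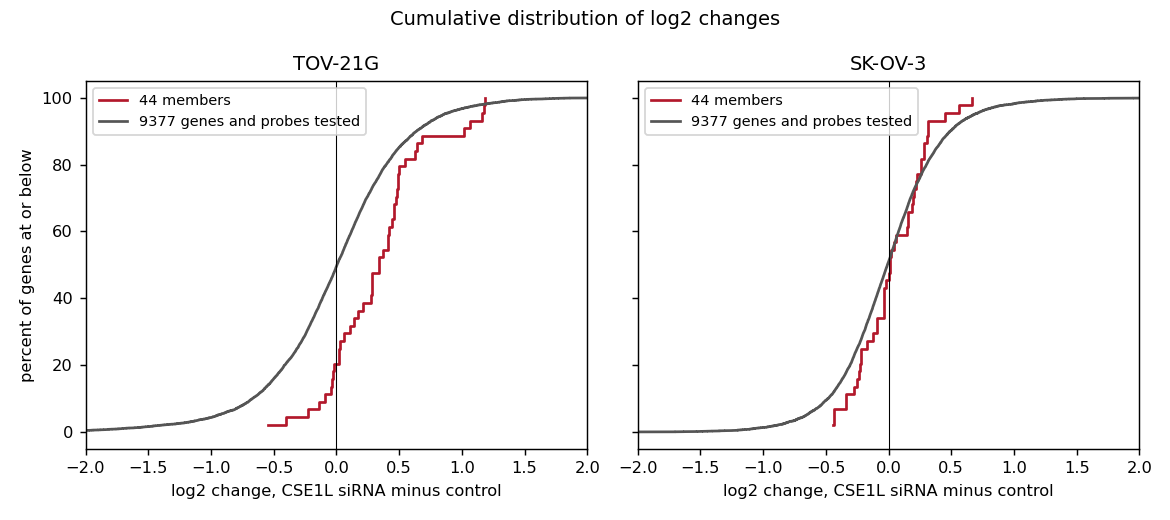
Cumulative percent of genes (vertical axis) at or below each log2 change, CSE1L siRNA minus control siRNA (horizontal axis), for the 44 tested members (red) and all 9377 genes and probes tested (grey), in TOV-21G on the left and SK-OV-3 on the right. The red curve lies right of the grey one in TOV-21G, with medians of 0.34 and 0.00, and crosses it in SK-OV-3, with medians of 0.01 and -0.01.

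The lipid hydrolases and their activators had a median log2 change of 0.76 in TOV-21G over 6 members, of which 4 lay above 0. LIPA, the acid lipase that frees cholesterol and fatty acids from lipoprotein lipids, had log2 intensities of 12.37 and 12.04 in silenced cells, against 11.28 and 11.10 in control cells. The groups did not overlap, and the silenced cells were 2.02-fold higher (log2 change 1.02, SE 0.26, n = 2 arrays per group, limma adjusted p = 0.0774). With the block the adjusted p was 0.0351, and LIPA also passed with no background correction (0.0278), on the values normalized by the authors (0.0188) and over genes detected on all 8 arrays (0.0472). PSAP, the precursor that is cut into the saposins needed for sphingolipid breakdown, had 12.31 and 11.07 in silenced cells, against 11.12 and 9.94 in control cells. The silenced array of experiment 2 lay just below the control array of experiment 1, while within each experiment the silenced array was higher, by 1.19 and 1.13. PSAP had a log2 change of 1.16 (SE 0.50, limma adjusted p = 0.249, and 0.0297 with the block), and 1.08 at its other probe. It was 0.54 without silenced replicate 1 and 0.57 without control replicate 2, and 1.77 without silenced replicate 2 and 1.76 without control replicate 1. SMPD1, acid sphingomyelinase, was higher in experiment 2 in both groups, with 7.82 and 9.13 in silenced and 6.74 and 7.85 in control cells. Its within-experiment differences were 1.08 and 1.27, and its log2 change of 1.18 did not pass (limma adjusted p = 0.266, and 0.0883 with the block). That change was 0.52 without silenced replicate 2, 0.62 without control replicate 1 and 1.85 without silenced replicate 1. A second SMPD1 probe, detected on 3 of the 8 arrays, gave -0.01. GM2A, the activator that presents GM2 ganglioside to hexosaminidase, had a log2 change of 0.49 (adjusted p = 0.346) with groups that did not overlap. ASAH1, acid ceramidase, had -0.03, and PPT1, a thioesterase that was detected on 1 array of each group, had -0.03.

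Of the 11 glycosidases, 10 had a log2 change above 0 in TOV-21G, and their median was 0.28 (8 of 11 were above 0 without silenced replicate 2). NEU1, the sialidase that trims sialic acid from glycoproteins and glycolipids, had 11.06 and 11.68 in silenced cells, against 9.83 and 10.54 in control cells. The lower silenced array stood above the higher control array, and within the experiments the differences were 1.23 and 1.14. This made NEU1 2.27-fold higher in silenced TOV-21G (log2 change 1.18, SE 0.34, limma adjusted p = 0.111, and 0.0321 with the block). It also passed with no background correction (adjusted p = 0.0461). Both arrays of the silenced cells were above both control arrays for 7 of the 11 glycosidases: NEU1, GLA, GUSB, HEXA, NAGLU, MANBA and FUCA1, where 24.1% of all genes had that order. HEXA, the alpha subunit of the hexosaminidase that degrades GM2 ganglioside, had a log2 change of 0.48, and FUCA1, which removes fucose, had 0.47. MANBA, which removes beta-linked mannose, had 0.46, and the remaining members of this group ranged from -0.05 for IDUA to 0.34 for NAGLU. None of these passed (limma adjusted p = 0.267 or higher). GAA, the acid glucosidase that degrades glycogen, had 9.67 and 10.34 in silenced and 9.51 and 9.95 in control cells, which overlapped (log2 change 0.28, adjusted p = 0.714). Its other probe averaged 8.46 ± 0.058 in silenced and 8.04 ± 0.059 in control cells (SD, n = 2 arrays each), without overlap (log2 change 0.42, limma adjusted p = 0.334 with every probe as itself). In SK-OV-3 the main GAA probe had 9.45 and 9.10 in silenced and 9.20 and 9.81 in control cells. GLB1, beta-galactosidase, was read by 3 probes. Its main probe gave 0.28, and a probe for another transcript, detected on all 8 arrays, gave 0.18. A dim probe for that same other transcript was detected on both silenced TOV-21G arrays and on none of the other 6. It passed the detection filter through those arrays alone.

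Sulfatases remove sulfate from sugars and lipids, and their 3 tested members had a median log2 change of -0.09 in TOV-21G. ARSB, which acts on dermatan sulfate, had 8.06 and 8.65 in silenced cells, against 8.76 and 9.04 in control cells. Both silenced arrays were the lower ones, and this was the lowest change of any member, -0.55 (SE 0.30, limma adjusted p = 0.372). ARSA, the sulfatase for sulfatide, had -0.09, and SGSH, which acts on heparan sulfate, had 0.17. The 2 peptidases and progranulin had a median of 0.49. GRN, progranulin, a secreted glycoprotein that is also cut into granulins inside lysosomes, had 13.04 and 13.19 in silenced cells, against 12.53 and 12.45 in control cells. The groups lay apart, with 1.54-fold higher values in silenced cells (log2 change 0.63, SE 0.20, limma adjusted p = 0.136, and 0.0968 with the block). LGMN, legumain, the protease that cuts after asparagine, had 11.39 and 11.84 in silenced and 11.02 and 11.22 in control cells, again without overlap (log2 change 0.49, adjusted p = 0.275). TPP1, which removes tripeptides from protein ends, had a log2 change of 0.06.

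**Figure D2:**
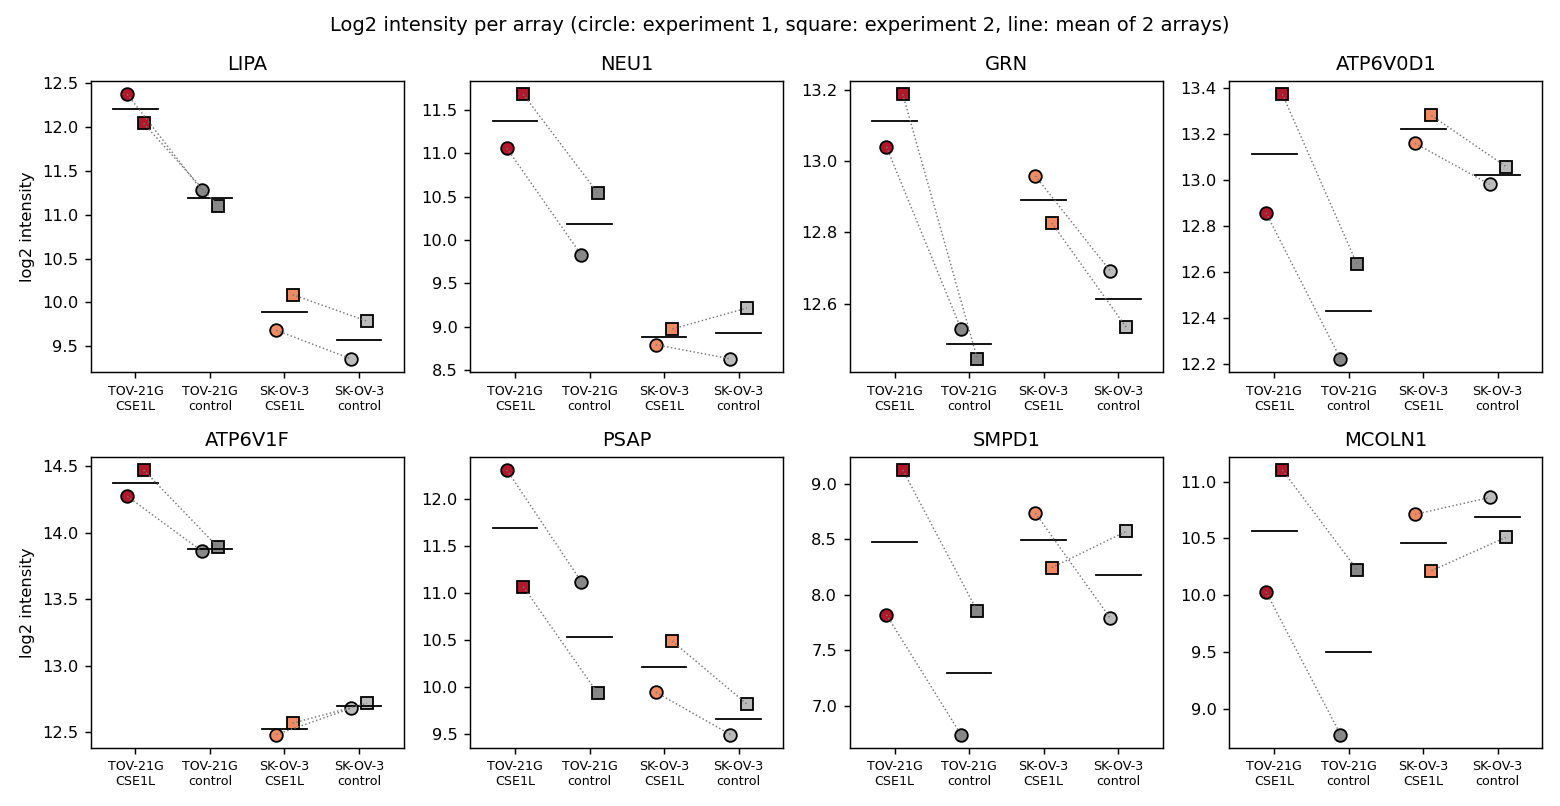
Log2 intensity (vertical axis) on each of the 8 arrays for 8 members, with CSE1L-silenced cells left of control cells within each line; circles are experiment 1, squares experiment 2, bars the mean of 2 arrays, and dotted lines join same-numbered arrays. LIPA, NEU1, GRN, ATP6V0D1 and ATP6V1F have both silenced TOV-21G arrays above both controls, while PSAP, SMPD1 and MCOLN1 overlap between experiments and are higher within each.

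Of the 6 membrane proteins, 5 had a log2 change above 0 in TOV-21G, and 4 did with median scaling; their median was 0.26, and no pair of groups was free of overlap. MCOLN1, the TRPML1 channel that releases calcium from lysosomes, had 10.03 and 11.10 in silenced cells, against 8.77 and 10.23 in control cells. Experiment 2 was the higher one in both groups, and within the experiments the silenced array was higher by 1.26 and 0.88. The log2 change was 1.07 (SE 0.51, limma adjusted p = 0.305, and 0.0389 with the block). It was 0.34 without control replicate 1 and 0.53 without silenced replicate 2, and 1.79 without control replicate 2 and 1.62 without silenced replicate 1. LAMP1 and LAMP2, the heavily glycosylated proteins that line the lysosomal membrane, had overlapping groups. LAMP1 had 14.26 and 13.84 in silenced and 13.98 and 14.08 in control cells (log2 change 0.02, SE 0.23, limma adjusted p = 0.973), and its direction turned with median scaling (-0.064). LAMP2 had 9.23 and 8.73 in silenced and 8.80 and 8.33 in control cells (log2 change 0.41, SE 0.33, limma adjusted p = 0.554). The tetraspanin CD63 had a log2 change of 0.46, SCARB2, the receptor that brings glucocerebrosidase to lysosomes, of 0.11, and CLN3, mutated in juvenile Batten disease, of -0.02. TFEB was not detected on any array, and its probe read 5.14 and 4.72 in silenced and 5.35 and 4.84 in control TOV-21G, and 5.22 and 5.31 in silenced and 5.92 and 6.12 in control SK-OV-3. TFE3, the 1 measured factor that binds the CLEAR element among the members, had 8.69 and 8.88 in silenced and 8.81 and 9.03 in control cells, with a log2 change of -0.14 (limma adjusted p = 0.821). RNA level says nothing about where the TFE3 protein was in the cell.

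The V-ATPase had 12 of its 14 members above 0 in TOV-21G, with a median log2 change of 0.39, and 10 of 14 with median scaling. All 4 V0 members were above 0, with a median of 0.42, and 3 of 4 without silenced replicate 2. ATP6V0D1, subunit d of the membrane sector, had 12.86 and 13.37 in silenced cells, against 12.22 and 12.63 in control cells. Silenced and control arrays did not overlap, and the log2 change was 0.69 (1.61-fold, SE 0.25, limma adjusted p = 0.188, and 0.0775 with the block). ATP6V0B, ATP6V0C and ATP6V0E1, the other membrane subunits, had log2 changes of 0.42, 0.41 and 0.37. In the V1 sector, 6 of 8 members were above 0 with a median of 0.21, and 4 of 8 with median scaling. ATP6V1F, subunit F of the central stalk, had 14.28 and 14.47 in silenced cells, against 13.86 and 13.89 in control cells. Here the groups lay apart with little spread between arrays (log2 change 0.50, SE 0.19, limma adjusted p = 0.210, and 0.146 with the block). ATP6V1G1, of the peripheral stalks, had 9.72 and 8.64 in silenced and 8.24 and 8.83 in control cells, and only in experiment 1 was the silenced array the higher. ATP6V1B2, an ATP-binding subunit, and ATP6V1C1, whose probe was detected on 7 arrays, were lower on both silenced arrays, with log2 changes of -0.23 and -0.40. ATP6V1A, the catalytic subunit, had 0.14, ATP6V1D 0.02, ATP6V1E1 0.28 and ATP6V1H 0.34. The accessory proteins ATP6AP1 and ATP6AP2, which bind the V0 sector, had log2 changes of 0.44 and 0.55.

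**Figure D3:**
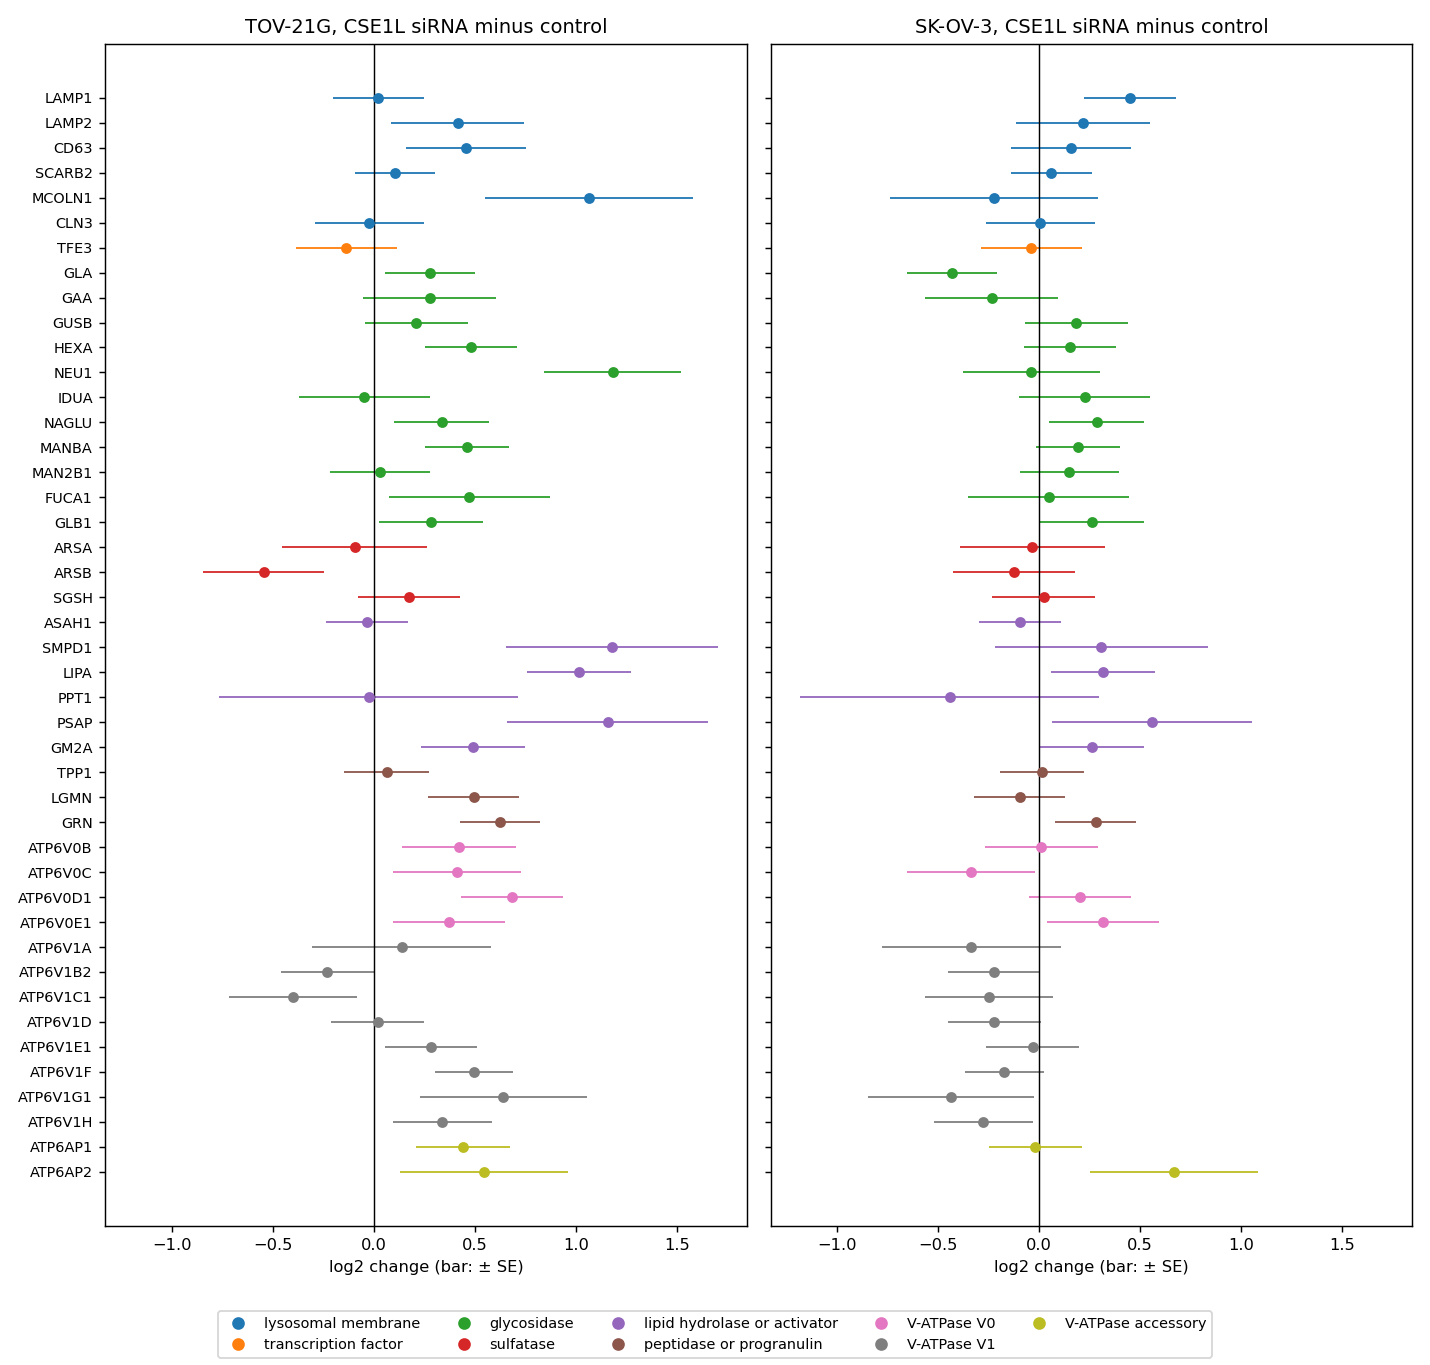
Log2 change, CSE1L siRNA minus control siRNA (horizontal axis), with its SE (bar) for the 44 tested members (rows, coloured by role), in TOV-21G on the left and SK-OV-3 on the right. The 4 V0 subunits lie above 0 in TOV-21G (3 of them without silenced replicate 2), and the 8 V1 subunits lie below 0 in SK-OV-3, with a median of -0.24; 0 members passed in either line, and 7 of the 8 V1 subunits were below 0 with median scaling.

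In SK-OV-3 the log2 changes of the lysosomal members lay on both sides of 0, and none passed the test. Of 44, 24 had a log2 change above 0 (54.5%), against 49.0% of all genes, and the median was 0.01, against -0.01. With median scaling 20 of 44 lay above 0, with a median of -0.05, against -0.09 for all genes. By limma 0 of 44 were called, with 0 at an unadjusted p under 0.05 (10.0% of all genes) and 0.0107% of all genes called. With the block, 0 of 44 were called, and 0 of 9377 genes. Silenced arrays lay above both controls for 9 members (20.5%), against 21.1% of genes, and below them for 6 (13.6%), against 21.2%. In both same-numbered pairs the silenced SK-OV-3 array was the higher one for 13 members (29.5%, against 29.3% of genes) and the lower one for 9 (20.5%, against 30.4%). LAMP1 had 14.20 and 13.95 in silenced cells, against 13.63 and 13.63 in control cells. It was higher on both silenced arrays, with a log2 change of 0.45 (SE 0.23, limma adjusted p = 0.561). GLA, the galactosidase that degrades globotriaosylceramide, had 12.10 and 11.68 in silenced and 12.33 and 12.32 in control cells, lower on both silenced arrays (log2 change -0.43, SE 0.22, limma adjusted p = 0.573). ATP6AP2, also known as the prorenin receptor, had 9.0 and 9.70 in silenced and 8.29 and 9.07 in control cells, which overlapped (log2 change 0.67, limma adjusted p = 0.664).

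GRN, and PSAP at its main probe, were higher on both silenced SK-OV-3 arrays, while LIPA was higher within each experiment. GRN had 12.96 and 12.83 in silenced and 12.69 and 12.53 in control SK-OV-3 (log2 change 0.28, limma adjusted p = 0.714). PSAP had 9.95 and 10.49 in silenced and 9.50 and 9.82 in control cells (log2 change 0.56, limma adjusted p = 0.784). The other PSAP probe had 9.52 and 10.47 in silenced and 9.62 and 9.63 in control cells, which overlapped (log2 change 0.37). LIPA had 9.68 and 10.09 in silenced and 9.36 and 9.79 in control cells (log2 change 0.31, limma adjusted p = 0.761). None of these 3 passed in SK-OV-3. NAGLU, which acts on heparan sulfate, had 8.79 and 8.64 in silenced and 8.68 and 8.18 in control cells (log2 change 0.28, limma adjusted p = 0.762). NEU1 had 8.79 and 8.98 in silenced and 8.63 and 9.22 in control cells, with overlapping groups and a log2 change of -0.04 (SE 0.34, limma adjusted p = 0.982). LAMP2 had 8.24 and 9.09 in silenced and 8.44 and 8.46 in control cells, and TFE3 had 8.08 and 8.11 in silenced and 8.43 and 7.84 in control cells. Their log2 changes of 0.22 and -0.04 were each smaller than the SE. The 8 V1 subunits all had log2 changes below 0, from -0.44 for ATP6V1G1 to -0.03 for ATP6V1E1, with a median of -0.24. Without SK-OV-3 control replicate 2 that median was -0.09 with 6 of 8 below 0. Silenced arrays were below both controls for ATP6V1F, ATP6V1D and ATP6V1H among them, and for ATP6V0C of the V0 sector, which had -0.34. The other ATP6V1H probe, detected on all arrays, gave 0.25 in SK-OV-3 and 0.84 in TOV-21G, where the chosen probe gave -0.28 and 0.34.

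Averaged over both lines, 33 of 44 members lay above 0 (75%), against 49.0% of genes, with a median log2 change of 0.18 (26 of 44 with median scaling). By limma 0 members passed, where 2.14% of genes did, and 5 had an unadjusted p under 0.05 (11.4%, against 20.6% of genes). All 5 were higher, and 9.90% of genes had such a p and were higher. LIPA had a mean log2 change of 0.67 (SE 0.18, limma adjusted p = 0.0944) and PSAP of 0.86 (SE 0.35, adjusted p = 0.222). Both rose with the block (adjusted p = 0.0460 and 0.0369), which called 2.59% of genes higher. GRN had a mean log2 change of 0.45 (adjusted p = 0.128), ATP6V0D1 of 0.44 (0.217), NEU1 of 0.57 (0.232) and MANBA of 0.33 (0.253), and none of these 4 passed. MANBA had 8.83 and 8.56 in silenced and 8.16 and 8.30 in control TOV-21G, and 9.50 and 9.48 in silenced and 9.20 and 9.39 in control SK-OV-3. Its silenced arrays lay above its controls in each line.

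The change in TOV-21G minus the change in SK-OV-3 was above 0 for 34 of 44 members (77.3%), against 50.7% of genes, with a median of 0.29. No member differed past the threshold by limma, nor did any of the 9377 genes (0% called). An unadjusted p under 0.05 was found for 2 members (4.55%, against 10.1% of genes). Both lay above 0, and 4.28% of genes had such a p and lay above 0. NEU1 had the smallest p, with a difference of 1.22 (SE 0.48, limma adjusted p = 0.441). ATP6V1F followed with 0.67 (SE 0.28, adjusted p = 0.465) and GLA with 0.71 (SE 0.32, adjusted p = 0.504). For GLA the TOV-21G arrays read 13.50 and 13.74 in silenced and 13.36 and 13.31 in control cells, the silenced ones higher, while both silenced SK-OV-3 arrays were the lower ones. ATP6V1F in SK-OV-3 had 12.48 and 12.57 in silenced and 12.68 and 12.72 in control cells, and LGMN there had 11.57 and 11.46 in silenced and 11.63 and 11.59 in control cells. For both genes the silenced SK-OV-3 arrays were below the controls, against the order in TOV-21G. The other LGMN probe detected on all 8 arrays overlapped in SK-OV-3, with 10.38 and 10.52 in silenced and 10.45 and 10.59 in control cells. ATP6V1G1 had 8.14 and 8.55 in silenced and 8.45 and 9.11 in control SK-OV-3, with overlap. LIPA differed by 0.70 (0.566), ATP6V1G1 by 1.08 (0.588), LGMN by 0.59 (0.588) and MCOLN1 by 1.29 (0.610), with limma adjusted p in brackets. An adjusted p above the threshold does not show that the lines responded alike.

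With the control siRNA alone, 12 of 44 members were called between the lines (27.3%), a smaller share than the 33.8% of all genes. TOV-21G controls had 10 members higher than SK-OV-3 controls (22.7%, against 17.1% of genes) and 2 lower (4.55%, against 16.7%). The median difference was 0.25 for members and -0.07 for all genes. Groups did not overlap for 21 members higher in TOV-21G (47.7%, against 31.6% of genes) and 7 lower (15.9%, against 36.9%). These TOV-21G control arrays are also the controls of the silencing comparison above. Among the lipid hydrolases, LIPA had 11.28 and 11.10 in TOV-21G controls, against 9.36 and 9.79 in SK-OV-3 controls. That difference of 1.62 (3.07-fold, SE 0.26, limma adjusted p = 0.00201) was far wider than the spread within either line. ASAH1 had 10.06 and 10.23 in TOV-21G and 9.14 and 9.31 in SK-OV-3 controls, a difference of 0.92 (limma adjusted p = 0.010).

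Of the 11 glycosidases tested, 4 were higher in TOV-21G controls and 1 was lower. Of all genes, 17.1% were called higher and 16.7% lower. GLB1 had 12.68 and 13.10 in TOV-21G controls, against 11.55 and 11.19 in SK-OV-3 controls (difference 1.52, 2.88-fold, limma adjusted p = 0.00273). FUCA1 had 10.65 and 10.49 in TOV-21G controls, against 8.13 and 9.39 in SK-OV-3 controls (difference 1.81, 3.51-fold, limma adjusted p = 0.00986). Its SK-OV-3 arrays lay over 1 log2 unit apart, and still below both TOV-21G arrays. GLA had 13.36 and 13.31 in TOV-21G and 12.33 and 12.32 in SK-OV-3 controls, close together within each line (difference 1.01, limma adjusted p = 0.00983). NEU1 had 9.83 and 10.54 in TOV-21G and 8.63 and 9.22 in SK-OV-3 controls (difference 1.26, limma adjusted p = 0.0234). MANBA went the other way, with 8.16 and 8.30 in TOV-21G controls, against 9.20 and 9.39 in SK-OV-3 controls (difference -1.07, limma adjusted p = 0.00547).

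The remaining roles gave 1 call each, among 3 sulfatases, 3 peptidases or progranulin, 6 membrane proteins, 14 V-ATPase members and 1 transcription factor. The sulfatase ARSB had 8.76 and 9.04 in TOV-21G controls, against 7.64 and 6.99 in SK-OV-3 controls, 3.0-fold higher in TOV-21G (difference 1.59, limma adjusted p = 0.00491). The peptidase TPP1 had 12.71 and 12.87 in TOV-21G and 12.05 and 11.90 in SK-OV-3 controls (difference 0.82, limma adjusted p = 0.0190). Of the V-ATPase, ATP6V1F was the 1 member of 14 called, where 33.8% of all genes were, with 13.86 and 13.89 in TOV-21G and 12.68 and 12.72 in SK-OV-3 controls (difference 1.18, 2.26-fold, limma adjusted p = 0.00245). TFE3 had 8.81 and 9.03 in TOV-21G and 8.43 and 7.84 in SK-OV-3 controls (difference 0.78, limma adjusted p = 0.0439). SCARB2 was lower, with 13.22 and 13.28 in TOV-21G and 13.90 and 13.89 in SK-OV-3 controls (difference -0.64, limma adjusted p = 0.0404). LIPA, ATP6V1F, GLB1, ARSB, FUCA1 and MANBA passed under all 16 alternatives, SCARB2 under 9 and TFE3 under 7. The difference was 1.17 for FUCA1 without SK-OV-3 control replicate 1 and 0.49 for TFE3 without SK-OV-3 control replicate 2. NEU1 was not called without TOV-21G control replicate 2 (adjusted p = 0.137) or SK-OV-3 control replicate 1 (0.129). ASAH1 was not called without the same arrays (0.0674 and 0.0537), GLA without TOV-21G control replicate 1 (0.0526) or with median scaling (0.0935), and TPP1 in 4 alternatives. SCARB2, TFE3 and TPP1 each lost their call without either TOV-21G control array or replicate 2 of the SK-OV-3 controls. With the block 14 members were higher (31.8%, against 20.3% of genes) and 4 lower (against 21.4%), adding PSAP, GM2A, CLN3 and ATP6V0E1 above and MCOLN1 and ATP6V0D1 below. Without the block PSAP differed by 0.87 (adjusted p = 0.217) and MCOLN1 by -1.18 (adjusted p = 0.115). The PSAP difference was 0.28 without TOV-21G control replicate 1 and 1.45 without replicate 2, and that of MCOLN1 was -0.46 and -1.91. The fibroblast gene COL1A1 was also higher in TOV-21G controls (difference 2.50, limma adjusted p = 0.010; not called when replicate 1 of the TOV-21G controls, 0.0527, or of the SK-OV-3 controls, 0.0622, was left out) and DCN was detected in TOV-21G only; their part in the member differences was not tested.

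**Figure D4:**
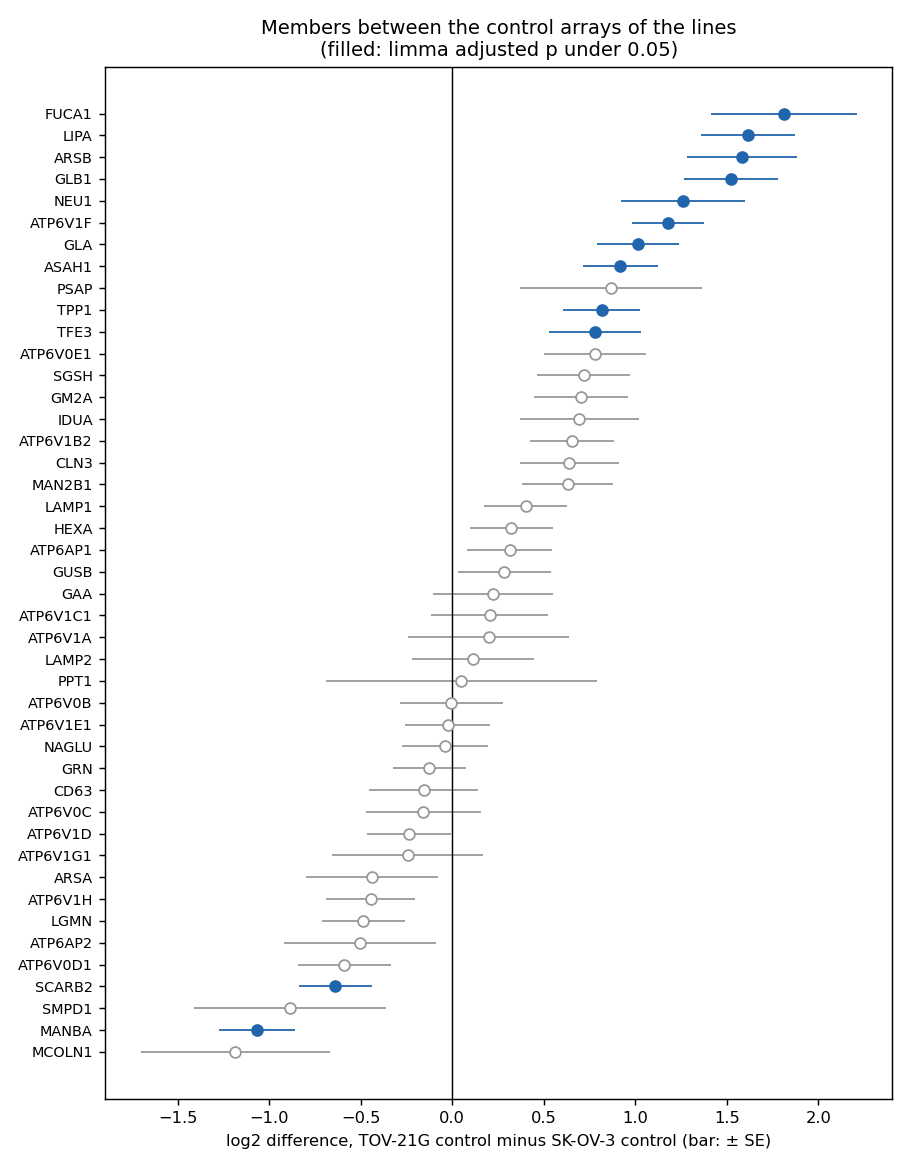
Log2 difference, TOV-21G control minus SK-OV-3 control (horizontal axis), with its SE (bar) for the 44 tested members (rows, ordered by size); filled points passed at a limma adjusted p under 0.05. FUCA1 at 1.81 and LIPA at 1.62 stand at the top, and MANBA at -1.07 and SCARB2 at -0.64 are the filled points below 0.

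Other genes of the lysosome and its control were read from lists kept apart from the members, and also chosen with earlier results of these data known. Of all genes tested, 1.09% were called higher in TOV-21G. In TOV-21G, 1 of 13 tested further hydrolases rose, PLA2G15, the lysosomal phospholipase A2, with 9.48 and 9.37 in silenced and 8.04 and 8.03 in control cells. The groups lay over 1 log2 unit apart (log2 change 1.39, SE 0.25, limma adjusted p = 0.0298). Of 10 cathepsins, the acid proteases, 8 lay above 0 and CTSF, cathepsin F, rose, with 9.98 and 10.10 in silenced and 8.16 and 8.37 in control cells (log2 change 1.77, SE 0.34, limma adjusted p = 0.0385). CTSF also passed in the mean of both lines (log2 change 1.57, adjusted p = 0.0317), the 1 such call among the lists without the block. Of 7 further V-ATPase subunits, ATP6V1G2, a form of subunit G known best from neurons, was detected on both silenced TOV-21G arrays and on no other array. It entered the tests through those arrays alone, the ones on which it is high, so its p-value is no independent support. ATP6V1G2 was at least 1.70-fold higher there than in control TOV-21G (limma adjusted p = 0.0265), against the lowest signal detected on the control arrays. These calls rested on few arrays: PLA2G15 and CTSF each lost theirs in 8 of 17 alternatives, among them without any 1 of the 4 TOV-21G arrays or either silenced SK-OV-3 array, with an adjusted p of up to 0.180 for PLA2G15 and 0.200 for CTSF. ATP6V1G2 lost its call in 6 of 14, among them without either TOV-21G control array (up to 0.162). The mean call of CTSF was lost without any 1 of the 8 arrays (adjusted p = 0.0532 to 0.117).

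No further list had a call in TOV-21G. Among 14 further membrane proteins, OSTM1, partner of the chloride channel CLCN7, had 1.0 (limma adjusted p = 0.0994), CLN6 had -0.78 (0.246) and TMEM175, a potassium and proton channel, had 0.59 (0.188), none past the threshold. Among 25 genes that sort proteins to lysosomes, AP1S1, an adaptor subunit, had 1.45 (0.0648), VPS18 had 0.81 (0.272) and VPS39 had 0.54 (0.320), with a list median of 0.06. Among 16 genes of the MiT factors and of mTORC1 control at the lysosome, BORCS6 had 0.96 (0.0927), the GTPase RRAGC had 0.92 (0.0588) and LAMTOR3 had 0.78 (0.0855), with a list median of 0.22. RRAGC passed with the block (limma adjusted p = 0.0473), as did OSTM1 (0.0422). The list medians in TOV-21G were 0.48 for the further hydrolases, 0.48 for the cathepsins, 0.54 for the further V-ATPase subunits and 0.09 for the further membrane proteins. In SK-OV-3 none of these 6 lists had a call.

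Between the control cells of the lines these lists gave calls in both directions, as did all genes tested (17.1% higher, 16.7% lower and 33.8% either way). Cathepsins were lower for 3 of 10 in TOV-21G controls and higher for 1: CTSB differed by -1.59, CTSD by -0.89 and CTSL by -1.41, and CTSC by 1.25. Of the further V-ATPase subunits 1 of 7 was called, ATP6V0E2, with 12.17 and 12.33 in TOV-21G controls, against 9.39 and 9.74 in SK-OV-3 controls (difference 2.69, limma adjusted p = 6.89e-05). Of 13 further hydrolases, 3 were higher in TOV-21G controls (DPP7, ARSG and RNASET2) and 1 lower (PLA2G15, -1.21). DPP7 and ARSG were detected on no SK-OV-3 control array and were at least 3.93-fold and 2.03-fold higher in TOV-21G controls. ARSG was detected on the TOV-21G arrays alone, and DPP7 on those and 1 silenced SK-OV-3 array. Both entered the tests through the line in which they are high, so their calls are no independent support. Of 14 further membrane and lumen proteins, NPC2, which binds cholesterol, LITAF and TMEM175 were higher, and CD68, a glycoprotein of the LAMP family, was lower, with 6.97 and 7.73 in TOV-21G controls, against 10.01 and 10.07 in SK-OV-3 controls (difference -2.69, limma adjusted p = 3.82e-04). Of 25 sorting genes, M6PR, the cation-dependent mannose 6-phosphate receptor, was higher by 1.27, while IGF2R, the cation-independent one, was lower (-0.95). VPS41 and SUMF1, which activates sulfatases, were also higher, and AP3S1 was lower (-2.29). Of 16 genes of the MiT factors and mTORC1 control, LAMTOR2, LAMTOR4 and RRAGA were higher and MTOR, RPTOR, RRAGC and RRAGD lower. Many of these calls were lost in some alternatives. RRAGC and TMEM175 passed in 8 of 16 and RNASET2 and SUMF1 in 9, and these 4 were lost with median scaling and without any 1 control array of either line or either silenced SK-OV-3 array (adjusted p of up to 0.186, for SUMF1). RRAGA and IGF2R passed in 12 of 16 and NPC2 in 13, each lost with median scaling and without TOV-21G control replicate 1 or replicate 2 of the SK-OV-3 controls, RRAGA also without SK-OV-3 control replicate 1 and IGF2R without TOV-21G control replicate 2. CTSD passed in 13 of 16, lost with median scaling and without TOV-21G control replicate 2 or replicate 1 of the SK-OV-3 controls. MTOR passed in 13, lost without either TOV-21G control array or replicate 2 of the SK-OV-3 controls. CTSC and LAMTOR2 passed in 14, both lost without TOV-21G control replicate 1, CTSC also without SK-OV-3 control replicate 2 and LAMTOR2 without SK-OV-3 control replicate 1. LAMTOR4 was lost without TOV-21G control replicate 1 (adjusted p = 0.0543) and RPTOR without TOV-21G control replicate 2 (0.0540). The other genes named here passed in every alternative that gave them a value. RRAGD, a Rag GTPase and known target of TFEB, was detected on no TOV-21G control array and was at least 12.8-fold lower there than in SK-OV-3 controls (limma adjusted p = 7.23e-06). It passed the detection filter without the TOV-21G controls, so that p-value is no independent support.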

How the data were processed

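RNA of 8 samples was hybridised to Illumina arrays, and samples were grouped by the line and siRNA in their labels. Per the file headers, the deposited table held non-normalized bead signal intensity on a linear scale, with a detection p-value for each probe and array. The authors also deposited a table of intensity after a normalization of their own, whose method is not given in the sources used here. BeadStudio 2 was used, per the submitters' processing notes. Of 24531 probes, 21838 had 1 gene symbol in the annotation, 0 had several and 2693 had none.

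In limma 3.58.1 (R 4.3.3) background was removed with normexp, fitted on detection p-values with an offset of 16, and signals were quantile normalized and log2 transformed. Probes with a detection p under 0.01 on at least 2 arrays were kept (10888), and each gene was read by its probe with the highest mean (9377 genes and unnamed probes). The fit had 4 group means on 8 arrays, 4 residual degrees of freedom and a prior of 3.87. Adjusted p-values are Benjamini-Hochberg over all 9377, with a threshold of 0.05, and SE is that of the fit. Where both arrays of a group missed a probe, the fold is a bound against the lowest signal detected on those arrays. The pipeline was also run on simulated data with noise independent between arrays, so that run does not bear on the replicate block. Python 3.11.15 with matplotlib 3.10.9 made the figures. The number of arrays limits the precision.

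The members and lists were chosen with earlier results of these data known. Array values were given for members past the threshold, for the 6 with the smallest p in each comparison, and for TFEB, TFE3, LAMP1 and LAMP2; from each further list, called genes and otherwise up to 3 with the largest change. The labels number the arrays as experiments and say no more. Deviations of same-numbered arrays from their group means correlated at 0.561 in TOV-21G, 0.126 in SK-OV-3, -0.137 between the controls and -0.183 between the silenced cells of the lines, so arrays of a line with the same number were treated as pairs. The pairing is not certain, and the fit with this block stands beside the unblocked one.

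The alternatives were median scaling, the block, each array left out in turn, an offset of 50, uncorrected background, the authors' own normalized values, detection on all 8 arrays, no detection filter, every probe as itself, and 1 line's arrays alone. A slide block was not run, since the sources used here give no slide.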

Additional observations from a re-analysis of the deposited data

Results flagged for a closer look

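For GLA, LGMN and ATP6V1F both silenced arrays lay above both control arrays in TOV-21G and below them in SK-OV-3. Of all genes, 24.1% lay above in TOV-21G and 21.2% below in SK-OV-3, and the share with both was not counted. The other LGMN probe detected on all 8 arrays overlapped in SK-OV-3 (log2 change -0.07). The change in TOV-21G minus that in SK-OV-3 was 0.71 on the log2 scale for GLA (limma adjusted p = 0.504), 0.59 for LGMN (adjusted p = 0.588) and 0.67 for ATP6V1F (adjusted p = 0.465). None of these differences passed the test, and their part in any response of the lines was not tested further.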

How the results depend on the processing

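The medians of the 44 members kept within the spread between replicates (SD 0.187) under every alternative run, from 0.20 to 0.37 in TOV-21G, -0.05 to 0.08 in SK-OV-3, 0.09 to 0.20 for the mean, 0.20 to 0.32 for the difference and 0.21 to 0.35 between the controls. Median scaling lowered the median of all genes in TOV-21G to -0.10, and the members' median relative to it was 0.30. The count of members higher in TOV-21G was 0 and became 4 with the replicate block, 2 with no background correction, 1 on the values normalized by the authors and 1 with detection on all 8 arrays. For the mean of both lines it was 0 and became 2 with the replicate block, 1 on the authors' values and 1 without background correction. Between the control cells the count higher was 10, and 6 to 10 when 1 array was left out, with 6 without TOV-21G control replicate 2. The count lower there was 2, 4 with the replicate block, 1 with median scaling and 1 to 2 when 1 array was left out. Several changes near 0 turned sign. LAMP1 in TOV-21G became -0.19 without silenced replicate 1, -0.02 without control replicate 1 and -0.064 with median scaling, and was 0.23 without silenced replicate 2. In SK-OV-3, NEU1 became 0.05 without silenced replicate 1 and 0.25 without control replicate 2, LAMP2 -0.21 without silenced replicate 2, and TFE3 0.25 without control replicate 1. With 1 array left out the opposite ends were -0.33 for NEU1, 0.64 for LAMP2 and -0.33 for TFE3. The cause was not tested. Of single-gene values under alternatives, 1531 kept direction and side of the threshold, 124 lost and 32 gained a call, and 7 turned. Over all genes, TOV-21G had 297 calls, 590 with the replicate block, 527 with no background correction, 0 to 182 with 1 array left out and 0 with only its 4 arrays. The mean had 201, against 518, 464, 389 on the authors' values, 389 with detection on all 8 arrays and 0 to 100 with 1 array left out. SK-OV-3 had 1, and up to 13 on the authors' values. The difference had 0, and 10 on the authors' values. The controls had 3166, and 1996 with detection on all 8 arrays, a setting that tested 6726 genes and probes and not 9377. Leaving out an array leaves 1 in its group, which is assumed to vary like the others. CSE1L in TOV-21G was not called without silenced replicate 2 (adjusted p = 0.112), without either control array (0.162 and 0.0767) or with only the 4 arrays (0.0886). With 2 arrays per group, small changes cannot be told from array spread.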
